A study of Homo sapiens with 3 samples.

Results

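Integrin and laminin genes, which encode proteins of cell attachment, were taken from the RefSeq table of GRCh38 by symbol, as protein-coding genes named ITGA or ITGB with a digit or with D, E, L, M, V or X, or LAMA, LAMB or LAMC with digits. They numbered 39 of 20037 protein-coding genes, of which 27 were integrin and 12 laminin genes. The symbol rule also took ITGBL1, which encodes an integrin beta-like protein and no receptor subunit. In H1299, an established human lung cancer line that the labels call adenocarcinoma cells, CUT&RUN targeted the transcription factor SP1, the histone mark H3K27ac or neither (a control IgG), with 1 library of each and no further treatment named. In CUT&RUN an antibody guides a nuclease to its target in nuclei and the released DNA is sequenced. The IgG library was not analysed here. The files hold peak summits and ranked regions but no read counts, so depth is unknown, no value has a replicate and no p-value was computed.

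Integrins and laminins are the receptor and ligand sides of cell attachment to the basement membrane. An integrin is a pair of membrane proteins, an alpha and a beta chain, that binds matrix proteins outside the cell and is linked to actin or keratin filaments inside it. A laminin is a cross-shaped trimer of an alpha, a beta and a gamma chain and is a main component of the basement membrane, on which epithelial cells and the carcinomas derived from them rest. SP1 is a zinc-finger transcription factor that binds GC-rich elements at many promoters. Acetylated lysine 27 of histone H3 (H3K27ac) marks active promoters and enhancers.

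Called summits numbered 5570 for SP1 (median score 6.17) and 3201 for H3K27ac (median score 5.01). The score in the deposited lists is a −log10 value, and the files do not say whether of a p-value or of a q-value. The region lists held 2356 SP1 and 2710 H3K27ac regions, rank 1 being the best. Of 8 lineage genes (KRT8, KRT18, KRT19, EPCAM, VIM, NKX2-1, SFTPB and NAPSA), none had an H3K27ac summit within 50 kb. Of all protein-coding genes, 15.7% had one there. SP1 lay within 50 kb of 2 of the 8, against 41.1% of all genes, and at an end of 1, against 13.7%. NAPSA, an alveolar protease gene, had an SP1 summit of 6.69 at an end, and EPCAM had SP1 summits within 50 kb. Among blood lineage genes, PTPRC had an H3K27ac summit in its span, SPI1 had SP1 summits within 50 kb and CD3D had no summit of either library there. In that list, H3K27ac lay within 50 kb of 1 of 4 genes and SP1 within 50 kb of 2 of 4. These calls are too sparse to check the labelled cell type.

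Both SP1 and H3K27ac summits lay within 50 kb of 4 of the 39 integrin and laminin genes (10.3%), near the background of 7.72% of all protein-coding genes. The 4 included ITGB1 and ITGA5, which encode the chains of the main fibronectin receptor, and LAMC1, the gamma chain of most laminin trimers. ITGA6 was the other gene. For ITGB1, ITGA5 and LAMC1 the 250 bases before the RefSeq start are shown. Each was the closest protein-coding gene to the SP1 and H3K27ac summits upstream of its start. At ITGB1 those summits lay nearer to an end of ITGB1-DT, a long non-coding RNA gene, than to ITGB1. ITGBL1 is added as the other gene with an SP1 summit at an end and a promoter in the RefSeq table, although that summit lay at its far end. ITGA5 and ITGB1 were chosen after their values were seen. The sequences are those of RefSeq on GRCh38.p14, written 5′ to 3′ on the strand of the gene. Capitals mark the GC box, the hexamer GGGCGG or its reverse complement CCGCCC, with overlapping matches counted.
LAMC1, chr1:183023170-183023419, plus strand: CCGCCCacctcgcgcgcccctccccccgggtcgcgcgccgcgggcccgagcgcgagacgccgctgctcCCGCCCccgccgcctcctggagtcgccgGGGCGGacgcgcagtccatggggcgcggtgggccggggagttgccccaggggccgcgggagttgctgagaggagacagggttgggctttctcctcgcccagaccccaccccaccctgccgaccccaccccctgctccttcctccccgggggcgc
ITGA5, chr12:54419267-54419516, minus strand: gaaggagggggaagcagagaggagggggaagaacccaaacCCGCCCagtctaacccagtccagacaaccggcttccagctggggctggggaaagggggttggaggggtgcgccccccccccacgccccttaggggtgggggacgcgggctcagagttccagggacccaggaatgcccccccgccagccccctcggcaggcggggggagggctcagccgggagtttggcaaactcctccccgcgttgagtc
ITGB1, chr10:32958231-32958480, minus strand: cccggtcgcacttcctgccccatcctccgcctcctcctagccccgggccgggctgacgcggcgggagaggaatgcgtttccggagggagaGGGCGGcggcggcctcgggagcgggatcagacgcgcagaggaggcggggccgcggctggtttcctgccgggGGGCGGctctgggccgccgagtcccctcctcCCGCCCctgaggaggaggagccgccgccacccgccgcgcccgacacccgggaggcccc
ITGBL1, chr13:101452425-101452674, plus strand: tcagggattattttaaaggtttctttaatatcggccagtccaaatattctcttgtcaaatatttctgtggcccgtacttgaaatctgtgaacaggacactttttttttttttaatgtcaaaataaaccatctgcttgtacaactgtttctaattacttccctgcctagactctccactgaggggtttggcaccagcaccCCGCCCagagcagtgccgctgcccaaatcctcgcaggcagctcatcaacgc

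The LAMC1 and ITGB1 sequences each held 3 GC boxes, and the ITGA5 and ITGBL1 sequences 1 each. Boxes began between 154 and 250 bases before the start in LAMC1 and between 58 and 160 bases before it in ITGB1. The box of ITGA5 began at 210 bases and that of ITGBL1 at 51 bases. The share of G and C was 79.6% in LAMC1, 78.4% in ITGB1, 70.0% in ITGA5 and 44.0% in ITGBL1. No summit of either library lay inside these stretches. The sequence of ITGA6, the remaining gene with both libraries within 50 kb, is not shown. It held 0 GC boxes in the 250 bases before its start.

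A promoter of 300 bases, from 250 before to 50 after the start, was listed for 27 of the 39 genes. Of these, 15 held a GC box, or 55.6%, against 58.5% of 15843 protein-coding promoters. LAMA5 had 5 boxes, and ITGA2, ITGA8 and LAMB1 had 4 each. ITGB5, ITGB8 and ITGAM had 2 each. None of those 7 genes had SP1 at a gene end. LAMC1 was the only one of the 15 with an SP1 summit within 1000 bases of its start. Over all protein-coding genes with a listed promoter, that was the case for 19.3% of those with a GC box and 6.48% of those without.

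The first comparison asked how many of the genes carried a summit at a gene end, meaning within 1000 bases of either end of the span. An SP1 summit was there in 3 of 39 genes (7.69%, 95% Wilson interval 2.65 to 20.3, for counting error only), against 13.7% of all protein-coding genes. The 3 genes were LAMC1, ITGA7 and ITGBL1. An H3K27ac summit was at an end in 0 of 39, for which the Wilson interval reaches 8.97%, against 0.848% of all genes. The share over all genes lay inside the interval for SP1, and for H3K27ac less than 1 gene would be due at that share. Where the start could be placed by strand, 1 of 27 genes had an SP1 summit within 1000 bases of it, against 13.98% of 15843 genes.

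LAMC1 encodes the gamma chain shared by most laminins and spans 183023420 to 183145592 on chromosome 1. Its SP1 summit lay at 183022660 with a score of 7.25, higher than 61.8% of the SP1 list, 760 bases upstream of the start. An H3K27ac summit of 4.11 lay at 183022162, which is 1258 bases upstream of the start and 498 bases from the SP1 summit. The SP1 summit was inside the limit of 1000 bases and the H3K27ac summit outside it. No other gene had an end within 1000 bases of either summit, and neither summit belonged to a ranked region.

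ITGA7 encodes an alpha chain of laminin receptors that is known from skeletal and heart muscle, and it spans 55684568 to 55716400 on chromosome 12. SP1 summits of 4.58, 9.21 and 5.80 lay at 55715816, 55716296 and 55716628, at 584, 104 and 228 bases from its high-coordinate end. All 3 were also within 1000 bases of an end of BLOC1S1, which encodes a subunit of a lysosome biogenesis complex and whose span overlaps that end of ITGA7. The summits thus belong to the ends of both genes. A further SP1 summit of 5.35 lay 21.9 kb from the gene, closest to GDF11, in an SP1 region of rank 237. The nearest H3K27ac summit was 113 kb from ITGA7.

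ITGBL1 spans 101452675 to 101720856 on chromosome 13. Its SP1 summit, at 101720486 with a score of 4.34, lay 370 bases inside the high-coordinate end, which is the far end from the start. FGF14, a fibroblast growth factor family gene, also covers this position. It formed an SP1 region of rank 1680. No H3K27ac summit was called within 935 kb of ITGBL1.

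**Figure D1:**
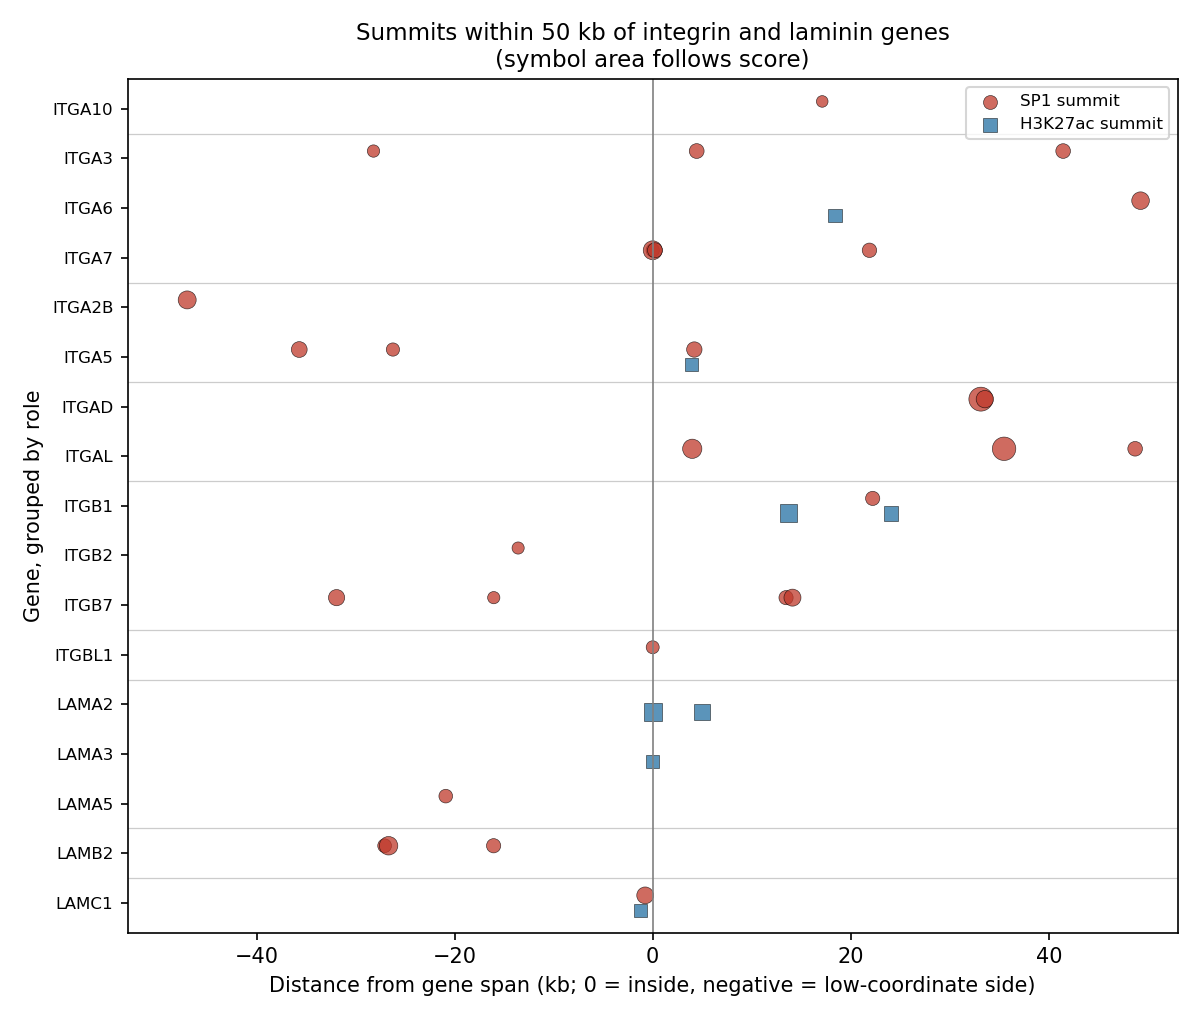
Summits within 50 kb of those 17 of the 39 integrin and laminin genes that had any, grouped by role, with distance from the gene span in kb on the x axis (0 is inside the span). Red circles are the 30 SP1 summits and blue squares the 8 H3K27ac summits, with area following the score. Most rows hold circles alone, and circles and squares lie side by side at ITGA5, ITGB1 and LAMC1.

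Inside gene spans, SP1 summits lay in 2 of 39 genes (5.13%, Wilson interval 1.42 to 16.9), ITGA7 and ITGBL1, against 12.7% of all genes. H3K27ac summits also lay in 2 of 39, LAMA2 and LAMA3, against 5.66% of all genes. Integrin and laminin genes are long, with a median span of 79.4 kb against 24.1 kb over all genes, which gives a summit more room. In the class of 50 to 200 kb, no summit of either library lay in the span of any of 22 integrin and laminin genes, against 15.3% with SP1 and 9.65% with H3K27ac of 4870 genes. Of 5 integrin and laminin genes of 200 kb or more, 2 had an H3K27ac summit in the span, against 30.7% of 1399 genes.

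Within 50 kb of the span, SP1 was found at 15 of 39 genes (38.5%, Wilson interval 24.9 to 54.1), against 41.1% of all genes. H3K27ac was found at 6 of 39 (15.4%, 7.25 to 29.7), against 15.7%, and both at 4 of 39 (10.3%, 4.06 to 23.6), against 7.72%. These pooled shares were near the background and are not a result about integrin and laminin genes. By span length, SP1 was within 50 kb of 9 of the 12 integrin and laminin genes of 10 to 50 kb, against 44.0% of 8074 genes, and of 5 of the 22 of 50 to 200 kb, against 38.5% of 4870 genes. The first class thus lay above its background and the second below it, with no test of the difference. Fewer of these genes had the closest protein-coding span to such a summit, a measure chosen after the values were seen. They were 3 of the 12, against 21.6% of the class, and 2 of the 22, against 22.8%. The 30 SP1 summits had scores of 3.49 to 14.7 with a median of 5.58. The 8 H3K27ac summits had scores of 4.11 to 8.34 with a median of 5.01. No summit was counted for more than 1 of the genes.

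The span of an integrin or laminin gene was the closest protein-coding span, ties included, for 7 of the 30 SP1 summits and for 8 of the 8 H3K27ac summits. A further 9 SP1 summits (30.0%) lay over 1000 bases from the integrin or laminin gene and within 1000 bases of an end of another gene. Counted by gene, 6 of 39 were the closest to an SP1 summit within 50 kb, against 20.3% of all genes. Likewise 6 of 39 were the closest to an H3K27ac summit (15.4%, 7.25 to 29.7), against 8.66%. This measure was chosen after the values were seen. With genes of every kind as neighbours, 3 of 39 were the closest to an SP1 summit, against 17.4% of all genes. For H3K27ac it was 3 of 39, against 7.04%. The shares over all summits of each list are not given, so the counts by summit are a description.

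**Figure D2:**
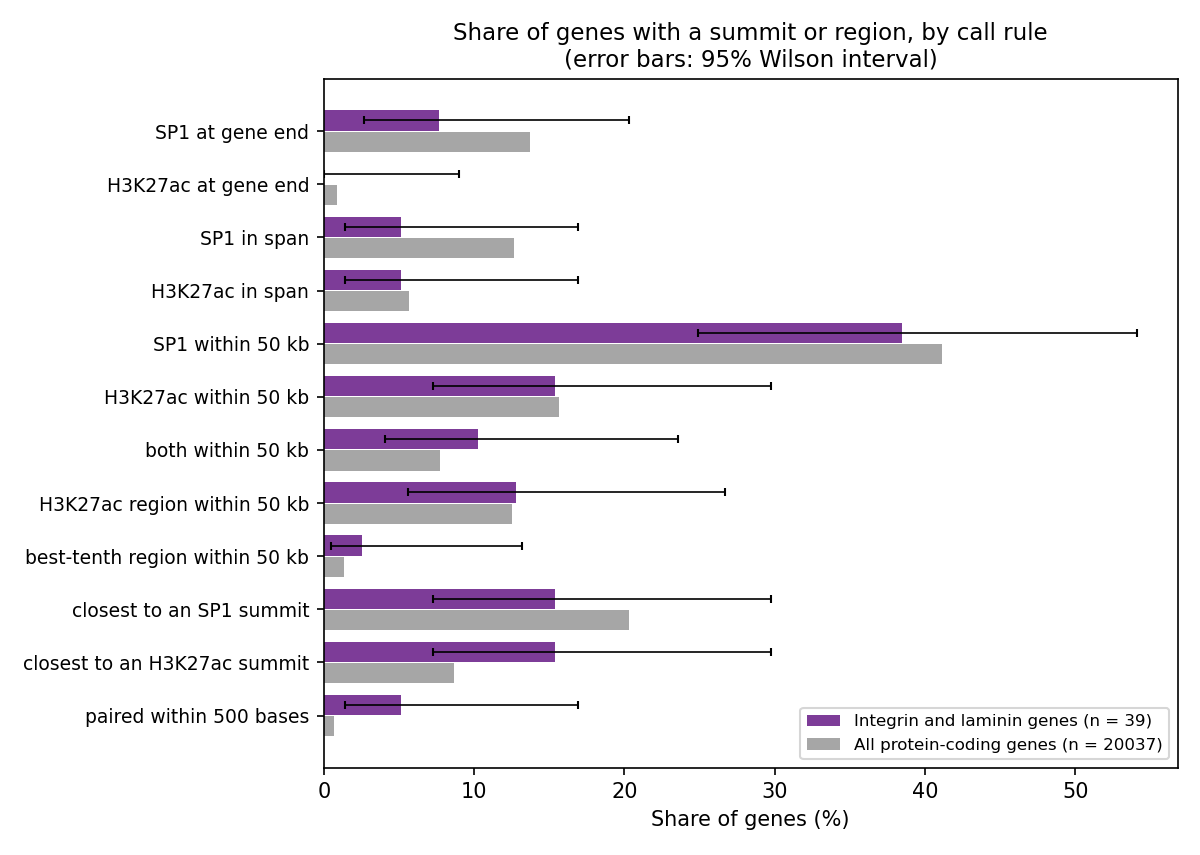
Share of genes in percent for each call rule, with integrin and laminin genes (purple, n = 39, error bars 95% Wilson intervals) above all protein-coding genes (grey, n = 20037). The grey bar lies inside the purple interval for every rule except paired summits within 500 bases, where 5.13% stands above 0.714%, and there the rule was set after the values were seen.

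Among the beta chains, ITGB1 stood out by the rank of its region. ITGB1 pairs with more alpha chains than any other beta chain and takes part in binding to collagen, laminin and fibronectin. It spans 32900318 to 32958230 on chromosome 10, with its start at the high-coordinate end. H3K27ac summits of 8.03 and 5.39 lay at 32971937 and 32982306, at 13707 and 24076 bases upstream of the start. The first scored above 95.7% of the H3K27ac list. They were joined into 1 region of 10927 bases, from 32971460 to 32982386, ranked 10 of 2710 and within the best 0.369% of the list. An SP1 summit of 5.18 lay inside it at 32980445, 22215 bases upstream of the start and 1861 bases from the nearer H3K27ac summit. That SP1 summit belonged to an SP1 region of rank 583.

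The ITGB1 region was among those that joined separate peaks. Its summits lay 10369 bases apart, and 98 of the 2710 H3K27ac regions joined more than 1 peak. All 98 ranked within the best 181. The signal used for ranking is not in the files, so the part of length in the rank was not tested. ITGB1 was the closest protein-coding gene to both summits and to the SP1 summit. The gene end closest to the outer H3K27ac summit, at 245 bases, was that of ITGB1-DT, a long non-coding RNA gene upstream of ITGB1.

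**Figure D3:**
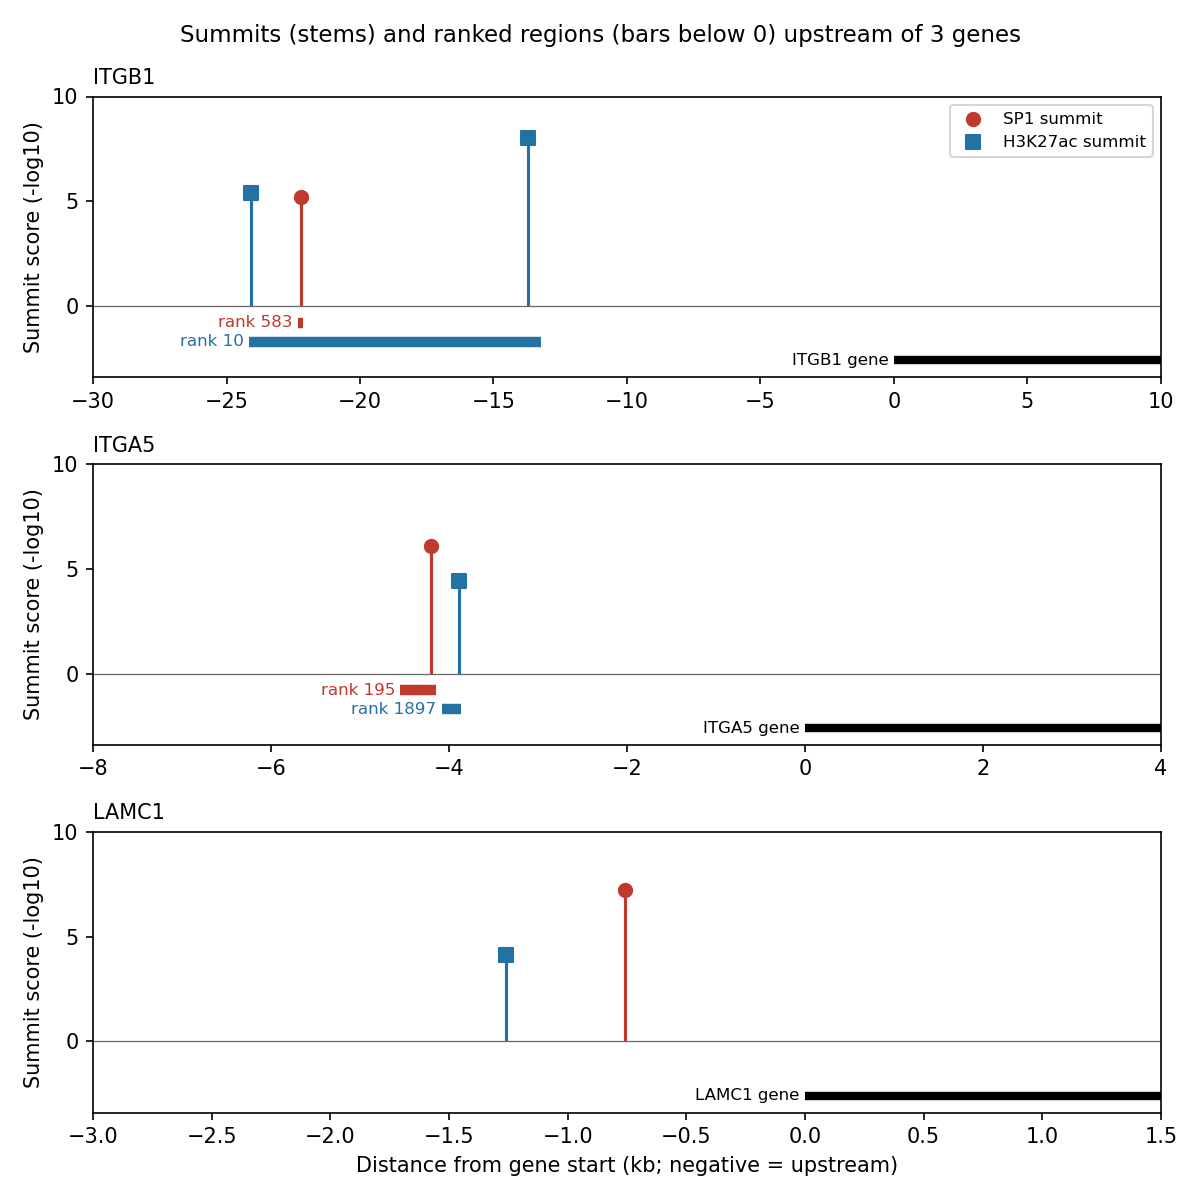
SP1 (red) and H3K27ac (blue) summits around the starts of ITGB1, ITGA5 and LAMC1, with distance from the start in kb on the x axis (negative is upstream) and the summit score on the y axis. Bars below 0 are ranked regions. The summits of both libraries lie upstream of the start in each gene, about 14 to 24 kb away at ITGB1, 4 kb at ITGA5 and 1 kb at LAMC1.

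An H3K27ac region lay within 50 kb of 5 of 39 genes (12.8%, Wilson interval 5.60 to 26.7), against 12.5% of all genes. The region of ITGB1 was the only one among the first 271 by rank, so 1 of 39 genes had such a region within 50 kb (2.56%, 0.454 to 13.2), against 1.33%. The others ranked from 354 to 2354 and were 219 to 314 bases long.

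**Figure D4:**
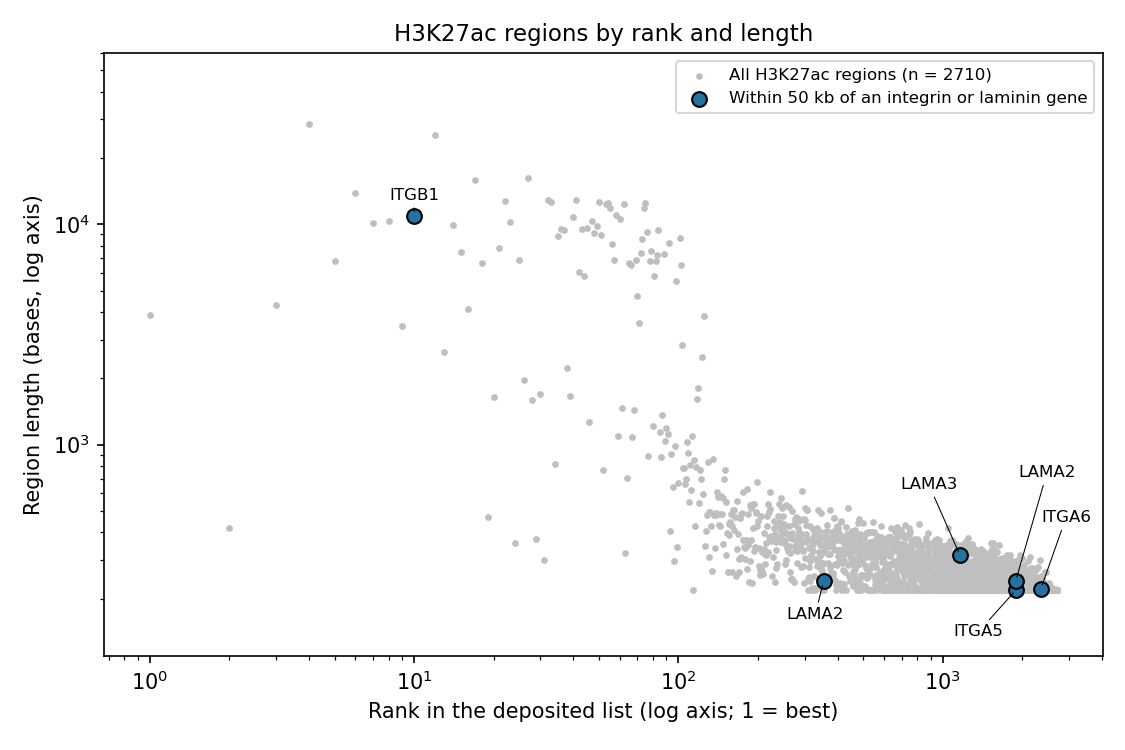
Length in bases against rank for the 2710 H3K27ac regions (grey; both axes logarithmic), with the 6 regions within 50 kb of an integrin or laminin gene in blue. The ITGB1 region, of rank 10 and 10927 bases, stands apart from the other 5, which are under 320 bases long.

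The other beta chain genes had SP1 summits only beside other genes, or none. ITGB2, the beta chain of leukocyte integrins, had an SP1 summit of 3.80 at 13.6 kb, inside PTTG1IP. ITGB7, the beta chain of gut-homing lymphocyte integrins, had 4 SP1 summits of 6.76, 3.86, 5.17 and 7.41 at 31.9, 16.1, 13.5 and 14.1 kb. Each lay within the span of CSAD or of RARG, a retinoic acid receptor gene. No summit of either library lay within 50 kb of ITGB3, ITGB4, ITGB5, ITGB6 or ITGB8. ITGB4, the hemidesmosome chain, had its nearest SP1 summit at 54.2 kb, and ITGB3, a platelet and vascular chain, its nearest H3K27ac summit at 50.8 kb, both just outside the limit. Just inside it were SP1 summits at 49.3 kb from ITGA6 and 48.7 kb from ITGAL.

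Among alpha chains that recognise the RGD motif of fibronectin and vitronectin, ITGA5 had the only summits within 50 kb for which the gene itself was the closest protein-coding one. ITGA5 pairs with ITGB1 as the fibronectin receptor and spans 54395261 to 54419266 on chromosome 12. An SP1 summit of 6.08 at 54423469 and an H3K27ac summit of 4.42 at 54423152 lay 4203 and 3886 bases upstream of the start and 317 bases from each other. Both lay inside the span of GPR84-AS1, a long non-coding RNA gene. Their scores exceeded 47.4% of the SP1 list and 30.0% of the H3K27ac list. They formed an SP1 region of rank 195 and an H3K27ac region of rank 1897, which did not overlap. On the other side of the gene, SP1 summits of 6.42 and 4.52 at 35.7 and 26.2 kb formed 1 SP1 region of 9861 bases and rank 15 of 2356. The first lay inside GPR84 and the second 111 bases from an end of ZNF385A.

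The remaining RGD chains had little nearby. ITGA2B, the platelet fibrinogen receptor chain, had an SP1 summit of 8.30 at 47.0 kb, which lay 344 bases from an end of SLC25A39, a mitochondrial carrier gene. ITGAV, the alpha chain of vitronectin receptors, had its nearest H3K27ac summit at 54.4 kb and its nearest SP1 summit at 861 kb. ITGA8 had none of either library within 302 kb.

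LAMC1 and ITGA5 were the only genes of the 39 with SP1 and H3K27ac summits within 500 bases of each other and both within 50 kb (5.13%, Wilson interval 1.42 to 16.9), against 0.714% of all genes. At LAMC1 the distance of 498 bases was only just inside that limit. This measure was added after the summits were seen, and it rests on 2 genes, so the difference is a description. With 2000 bases allowed, ITGB1 was the third, against 1.06% of all genes.

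The other laminin-binding alpha chains had weaker or more distant summits. ITGA6, the alpha chain of hemidesmosomes and of many epithelial laminin receptors, had an H3K27ac summit of 4.63 at 172524852 on chromosome 2, 18.4 kb beyond its high-coordinate end, in a region of 222 bases ranked 2354. Its SP1 summit of 7.95, at 49.3 kb, lay 354 bases from an end of PDK1, a pyruvate dehydrogenase kinase gene. ITGA3, which also binds laminin in epithelia, had SP1 summits of 3.92, 5.64 and 5.53 at 28.2, 4.44 and 41.5 kb and its nearest H3K27ac summit at 410 kb. Of these, the first had ITGA3 as its closest protein-coding gene, while the second lay 186 bases from an end of PDK2.

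Of the collagen-binding alpha chains, ITGA10 alone had a summit within 50 kb. It was an SP1 summit of 3.49, among the lowest 2.41% of the list, 17.1 kb away and 315 bases from an end of RBM8A, an exon junction complex gene. ITGA1 and ITGA2, neighbours on chromosome 5, had the most distant SP1 summits of the 39 genes, at 3950 and 3815 kb, and H3K27ac summits no closer than 5702 and 5904 kb. ITGA11 had its nearest SP1 summit at 66.9 kb. ITGA4 and ITGA9, which bind VCAM1 and tenascin, had no summit of either library within 133 and 175 kb.

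The leukocyte alpha chains had their nearest H3K27ac summits 266 kb away or farther. ITGAL, the alpha chain of the lymphocyte receptor for ICAM proteins, had SP1 summits of 9.48, 14.1 and 5.50 at 3.99, 35.5 and 48.7 kb, closest to the zinc-finger genes ZNF768, ZNF764 and ZNF688. ITGAD had SP1 summits of 14.7 and 7.74 at 33.1 and 33.5 kb, both inside ARMC5. The SP1 summits of 14.7 and 14.1 were the highest scores near any of the 39 genes and lay above 90.1% of the list or more, yet neither had an integrin gene as its closest one. ITGAM, ITGAX and ITGAE, the myeloid and intraepithelial chains, had their nearest SP1 summits at 80.0, 76.6 and 78.1 kb.

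Among laminin alpha chains, LAMA2 and LAMA3 carried H3K27ac without SP1. LAMA2, the alpha chain of muscle and nerve basement membranes, spans 128883138 to 129516566 on chromosome 6 and at 633 kb is the longest of the 39. An H3K27ac summit of 8.34 at 129490481, above 95.9% of its list, lay inside the gene 607 kb downstream of the start, in a region of 239 bases ranked 354. A second, of 6.48 at 129521509, lay 4.94 kb beyond its far end in a region ranked 1888. That position is inside the span of LOC102723409, a long non-coding RNA gene. LAMA3, the alpha chain of epithelial laminin at hemidesmosomes, had an H3K27ac summit of 4.53 at 23720423 on chromosome 18, in a region of 314 bases ranked 1163. It lay inside the RefSeq span and 153 kb upstream of the start listed in the promoter table. The nearest SP1 summits were 136 kb from LAMA2 and 103 kb from LAMA3.

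The other laminin chains, apart from LAMC1, had their nearest H3K27ac summits 135 kb away or farther. LAMA5, the alpha chain of most adult epithelial and vascular basement membranes, had an SP1 summit of 4.81 at 20.9 kb, inside OSBPL2. LAMB2, a beta chain of kidney and synaptic laminins, had SP1 summits of 4.85, 8.79 and 5.21 at 27.1, 26.7 and 16.1 kb, all within 1000 bases of an end of QRICH1 or of QARS1, a glutaminyl-tRNA synthetase gene. No summit lay within 50 kb of LAMA1, LAMA4, LAMB1, LAMB3, LAMB4 or LAMC3. LAMB3 encodes the beta chain of the epithelial laminin of hemidesmosomes, and its nearest SP1 summit was 57.4 kb away.

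In all, 22 of the 39 genes had no summit of either library within 50 kb, against 50.9% of all protein-coding genes without one. The median distance from the span to the nearest SP1 summit was 66.9 kb for the 39 genes and 85.7 kb for all genes. For H3K27ac it was 294 kb and 320 kb. A gene without a summit may still carry signal below the calling threshold, which the files do not show.

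Among genes whose products act with integrins and laminins, SP1 lay at some gene ends and H3K27ac at almost none. SP1 summits lay at an end of 5 of 25 focal adhesion genes, against 13.7% of all genes, and 0 had H3K27ac there, against 0.848%. They were VCL, which encodes the actin linker vinculin, at 15.5, LIMS1, an adaptor of integrin-linked kinase, at 15.5, the adaptor CRK at 13.03, the actin regulator VASP at 12.4 and PTK2, focal adhesion kinase, at 10.04. ACTN4, an actin crosslinker, had the best H3K27ac region of this list, of 6643 bases inside the gene and ranked 18. LIMS1 and BCAR1 had regions ranked 1988 and 1359.

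Of 17 matrix ligands and basement membrane partners, 2 had SP1 at a gene end, a share near the 13.7% of all genes. They were DAG1, the laminin receptor dystroglycan, at 10.9 and HSPG2, the basement membrane proteoglycan perlecan, at 7.86. Their best H3K27ac regions ranked 1898 (SPP1), 2282 (HSPG2) and 2555 (NID1), and FN1, the fibronectin gene, had no summit of either library within 50 kb. Of 7 hemidesmosome and tetraspanin genes, only the tetraspanin CD82 had an SP1 summit at an end, at 18.0. The hemidesmosome linker DST had an H3K27ac region in its span ranked 132, while CD9 and COL17A1 had regions ranked 290 and 352 at 32.4 and 32.1 kb. Of 6 counterparts of leukocyte integrins, ICAM3 had SP1 at an end, at 15.9, and ICAM2 had H3K27ac at an end, at 3.89. ICAM3 also had a region ranked 1619 at 35.2 kb. With 1 SP1 call at an end in each of the last 2 lists, against 13.7% of all genes, and 0 to 1 H3K27ac calls, against 0.848%, no list can be set apart from the background.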

How the data were processed

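Per the submitters' processing notes, the build was hg38, and the tools named, without roles, were cutadapt 2.5 and deepTools 3.4.1. The sources used here do not name the peak caller, its control or the ranking tool. The authors deposited for each antibody a summit list with a −log10 score of a p-value or q-value, and a region list whose score column is the rank. Gene spans came from the RefSeq table of GRCh38.p14 and promoters and strand from its promoter table, which listed 27 of the 39 genes. From these, with Python 3.11.15, pandas 2.3.3 and numpy 2.4.6, summits at a gene end (1000 bases), in the span and within 50 kb were counted for every protein-coding gene on 24 chromosomes, and positions are given 1-based. Intervals are 95% Wilson intervals and cover counting error only, and genes are not independent. The members and partner lists were chosen with earlier results of these data known. Genes with a summit within 50 kb are given with all scores and the others by name, and some genes are not reported here. Of the partner lists, genes with a summit at an end and up to 3 with the best H3K27ac regions are named. The counting was tested on simulated data. Alternatives covered windows, distances, stricter scores and subsets of the genes.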

Additional observations from a re-analysis of the deposited data

How the results depend on the processing

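No paired analysis was possible because each antibody has a lone library. Of 62 alternative counts, 31 stayed within 1.5 times the value reported and 31 did not. Some that stayed could not move. A count of 0 stays at 0 with fewer summits or genes, and ITGBL1 had no H3K27ac call within 50 kb to lose. Each count below is of the 39 integrin and laminin genes, with the share over all genes in parentheses. With summits above the median score, SP1 was in the span of 1 gene (7.25%) and within 50 kb of 9 (28.8%), H3K27ac in the span of 1 (3.02%) and within 50 kb of 2 (8.30%), both within 50 kb of 0 (2.55%), and paired summits within 500 bases at 0 (0.260%). Above the upper quartile, SP1 was at the end of 1 gene (6.21%), in the span of 1 (3.95%) and within 50 kb of 3 (18.1%), H3K27ac in the span of 1 (1.43%) and within 50 kb of 2 (4.09%), and both within 50 kb of 0 (0.759%). At starts alone, SP1 was found at 1 of 27 genes (13.98%), and with a window of 2500 bases H3K27ac was at the end of 1 (1.49%), LAMC1. Within 20 kb, 2 genes had both libraries (3.96%). Within 100 kb, 23 had SP1 (52.6%) and 2 had a region among the first 271 by rank (2.20%), ITGB1 and ITGB3. In the better-ranked 50% of regions, 3 genes had one within 50 kb (6.47%). Without ITGBL1, SP1 was in the span of 1 of 38 genes (12.7%).

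For the 27 integrin genes alone, H3K27ac was in the span of 0 (5.66%), within 50 kb of 3 (15.7%) and as a region within 50 kb of 3 (12.5%). For the 12 laminin genes alone, SP1 was at the end of 1 (13.7%), in the span of 0 (12.7%) and within 50 kb of 3 (41.1%), H3K27ac within 50 kb of 3 (15.7%), both within 50 kb of 1 (7.72%), a region within 50 kb of 2 (12.5%) and one among the first 271 within 50 kb of 0 (1.33%). With genes of every kind as neighbours, 3 genes were the closest to an SP1 summit (17.4%; ITGA7, ITGBL1 and LAMC1) and 3 to an H3K27ac summit (7.04%; LAMA2, LAMA3 and LAMC1). LAMA2 was then the closest only to the summit in its span, as the other lay inside LOC102723409. The spans of long non-coding RNA genes were also closer for ITGA3 (PICART1), ITGA5 (GPR84-AS1), ITGA6 (PDK1-AS1) and ITGB1 (ITGB1-DT). That setting and those on paired summits were chosen after seeing the data. Fewer summits, other distances or fewer genes move such counts by construction. The files do not give depth, so its limits cannot be stated.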
